A study of Mus musculus with 2 samples.

Results

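Of 7186 mouse transcripts that GENCODE M21 types as nonsense_mediated_decay, 1517 (21.1%) were present at 1 TPM or more in both libraries of the adult cerebral cortex. TPM is a relative abundance, corrected for transcript length and scaled to a fixed sum per library. The 1517 transcripts belong to 1293 genes and were chosen by this level in the alignment-based transcript tables, so their levels and their shares of the gene are given as a description and were not tested. The share is the transcript's TPM divided by the summed TPM of all annotated transcripts of its gene. The same threshold was met by 37167 of 141862 annotated transcripts of all types (26.2%), by 37.0% of those typed protein_coding, 37.3% of those typed retained_intron and 21.1% of those typed processed_transcript.

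Nonsense-mediated decay (NMD) is a surveillance pathway that degrades an mRNA when the ribosome stops well upstream of an exon junction. The exon junction complex left there by splicing is then still bound, and UPF1 with its partners is recruited to start decay. Many genes make such transcripts by regular alternative splicing. Genes of splicing factors are known for "poison exons", which carry a stop codon in frame and lower the output of productive mRNA. An NMD type in the annotation is a prediction from the position of the stop codon and does not show that a transcript is degraded. The level measured in the tissue is what remains after synthesis and decay.

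The tissue was left cerebral cortex, taken at 2 months of age from females of strain B6CASTF1/J, the hybrid offspring of C57BL/6J and CAST/EiJ parents. Total RNA was sequenced in 1 group with no treatment named, biological replicates 1 and 2 with 1 library each, starting with 300 ng and with ERCC spike-in RNA added. The tissue samples are numbered apart in the labels but share 1 donor entry, so the spread between replicates may be technical. Each library has 2 transcript tables made by the authors, the first estimated from alignments to the transcriptome (alignment-based, used throughout unless named otherwise) and the second from the reads without those alignments (read-based). In bulk tissue, fewer cells of a type and less RNA per cell cannot be told apart.

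Annotated transcripts held 31080923 expected counts in replicate 1 and 32174930 in replicate 2. At that depth 3 counts correspond to 0.147 and 0.137 TPM for a transcript of 1 kb. Markers of the labelled tissue were present: the synaptic gene Snap25 stood at 1348 and 1306 TPM in replicates 1 and 2. The cortical glutamate transporter gene Slc17a7 stood at 562 and 537 TPM. Of the markers of other brain regions, the hindbrain gene Hoxb3 was at 0 in both libraries. Slc17a6, also such a marker, was present at 14.08 and 12.04 TPM in replicates 1 and 2. A contribution of other brain regions was not tested. The choroid plexus gene Ttr differed between the libraries (6.12 and 34.3 TPM), with Folr1 of the same tissue at 0.170 and 0.480 TPM. Its part in the differences between replicates was not tested.

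The stop codons that give these transcripts their type are shown for 12 of them. In each of the 12 the stop is not that of a protein-coding transcript of the gene, while 123 of all 1517 (8.11%) share such a stop. Each sequence is the last 30 coding bases read 5′ to 3′ from the GENCODE M21 transcript (assembly mm10), with the stop codon in capitals. In the first 5, from genes of SR and TRA2 splicing factors, the stop lies in an internal exon that no protein-coding transcript of the gene contains. Srsf9-205 had the highest TPM of its gene list among those that also reached 1 TPM in both read-based tables, and the other four were added after their values were seen.
Srsf9-205: cctgggttggagattacggattcacagTAG
Srsf3-201: accatcatgtctcttctcaccaccctcTGA
Srsf4-203: gtaacccggttgtctcatgccccagctTAG
Tra2a-202: aaaaaattgaacagaagattggtcagaTAG
Tra2b-206: aatgagtatttgaagctcaggaataagTGA

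These exons measured 358 bases in Srsf9-205, 456 in Srsf3-201, 207 in Srsf4-203, 306 in Tra2a-202 and 276 in Tra2b-206. The printed windows lie at chr5:115328399-115328428, plus strand (Srsf9-205), chr17:29039458-29039487, plus strand (Srsf3-201), chr4:131884361-131884390, plus strand (Srsf4-203), chr6:49252965-49252994, minus strand (Tra2a-202) and chr16:22259181-22259210, minus strand (Tra2b-206). From the stop codon to the last exon junction there were 700 spliced bases in Srsf9-205, 548 in Srsf3-201, 617 in Srsf4-203, 964 in Tra2a-202 and 1015 in Tra2b-206. In Srsf9-205 and Srsf4-203 the annotated coding part begins at the first base of the transcript. It measures 187 and 170 bases with the stop, not a whole number of codons. For Srsf9-205 the annotation marks the start of the transcript or of its coding part as not found.

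In the other 7 the stop codon lies inside an exon that protein-coding transcripts of the gene also use, where it is not their own stop. Each is the transcript of highest TPM in its gene list, and all 7 also reached 1 TPM in both read-based tables.
Hnrnpu-206: gtccatgtgaatgtgctgtgtgaagagTAA
Rpsa-206: tggccgcttcacacctgggaccttcacTAA
Eif4a2-210: ttgcattggaggaacaaatgttcgaaaTGA
Psmd13-211: cctggtagaaataattctccatgtggtTAG
Srpk2-204: tctgggtctgcagataggaaaaatatcTAA
Celf2-228: caaaagatcccggtggtatggcggctcTGA
Gabra2-204: cctgtctcagatacagatatggtcctaTGA

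The windows of Hnrnpu-206 (chr1:178325281-178325310, minus strand), Rpsa-206 (chr9:120130165-120130194, plus strand), Eif4a2-210 (chr16:23110038-23110067, plus strand) and Psmd13-211 (chr7:140886526-140886555, plus strand) each lie within 1 exon. Those of Srpk2-204 (chr5:23525729-23527909, minus strand), Celf2-228 (chr2:6553950-6554294, minus strand) and Gabra2-204 (chr5:71014567-71034750, minus strand) run across an exon junction, so their genomic spans include an intron. In those 3 the stop codon ends 17, 15 and 9 bases into the downstream exon. Celf2-228 is also marked as having a start not found, and its coding part begins at the first base of the transcript.

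The 1517 transcripts together took 2.32% of the summed TPM of protein-coding genes in each replicate. All NMD-typed transcripts, without any threshold, took 2.63% and 2.62%, and 3.44% and 3.38% in the read-based tables. Most stood low: the median level was 3.13 TPM (quartiles 1.98 and 6.45), 963 reached 2 TPM in both libraries, 217 reached 10 TPM and 7 reached 100 TPM. The median expected count was 111, and 9 transcripts had a mean count below 10. Expected counts divide reads among overlapping transcripts, and this adds an error: the deposited posterior SD was above 25% of the count in at least 1 library for 685 of the 1517, and the deposited lower bound of the TPM was at least 1 in both libraries for 833.

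Of the 5669 NMD-typed transcripts that were not taken, 716 reached 1 TPM in 1 library only and 2533 were at 0 in both. Most genes contributed a single transcript (1107 genes), 154 contributed 2, 28 contributed 3, 2 contributed 4 and 2 contributed 5. For Ttc3, a ubiquitin ligase gene with 5, they summed to 10.2% and 12.8% of the gene in replicates 1 and 2. Of the other genes with several, Adarb1, an adenosine deaminase that edits RNA, was picked out after its values were seen: its 3 transcripts summed to 55.9% and 49.6% of the gene in the alignment-based and 42.01% and 34.7% in the read-based tables.

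A typical expressed NMD transcript was a minor product of its gene. The median share of the gene's summed TPM was 13.9% (quartiles 7.01% and 26.1%; 13.6% in replicate 1 and 13.8% in replicate 2). In both libraries 490 of the 1517 stayed below 10%, 871 were at 10% or more, 342 at 25% or more, 98 at 50% or more and 24 at 90% or more. The replicates gave like shares: the median SD over the 2 libraries was 1.52 percentage points, and 228 transcripts had an SD above 5 points. For comparison, the median share was 36.3% for the 21794 protein_coding, 7.29% for the 8139 retained_intron and 10.6% for the 3353 processed_transcript transcripts that met the same threshold in both libraries and have read-based values. The median length was 1633 bases for the NMD and 2591.5 bases for the protein_coding transcripts.

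**Figure D1:**
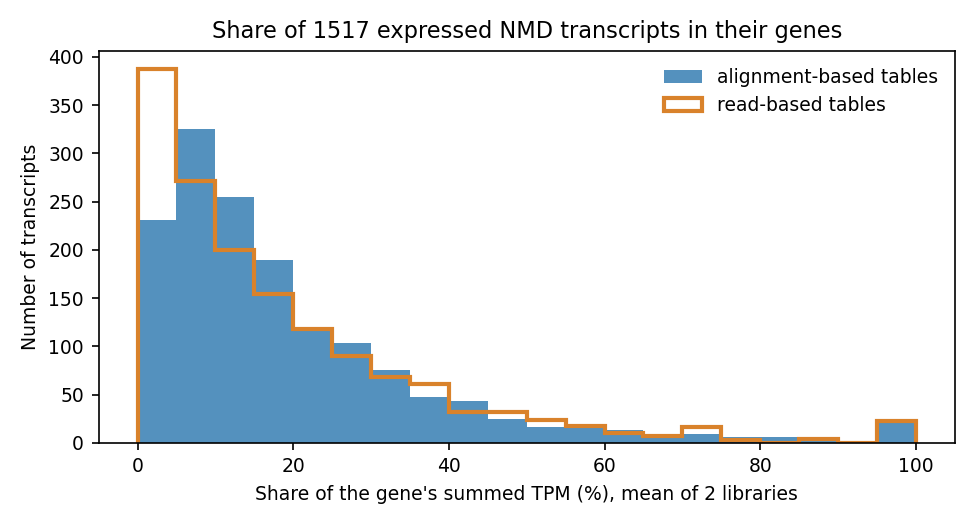
Number of expressed NMD transcripts (y axis) by their share of the gene's summed TPM in percent (x axis, mean of 2 libraries, bins of 5 points), with filled bars for the alignment-based tables that chose them and an outline for the read-based tables. Both peak below 10%, and the bin from 0 to 5% holds more transcripts in the read-based tables; the median is 13.9% in the former and 12.1% in the latter.

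Within the 1293 genes, protein_coding transcripts took 63.0% and 63.2% of the summed TPM in replicates 1 and 2, NMD transcripts 18.2% and 18.3%, retained_intron transcripts 13.9% and 13.6%. The read-based tables gave 60.7% and 60.96% to protein_coding and 18.9% and 19.2% to NMD transcripts. A view that does not depend on the threshold took all 2517 genes with an annotated NMD transcript and a summed level of 10 TPM or more in both libraries. Their NMD transcripts held a median 3.80% and 3.92% of the gene in replicates 1 and 2, and 6.84% and 6.70% in the read-based tables. In 685 of the 2517 genes (27.2%) the NMD share was 10% or more in both libraries, in 285 it was 25% or more and in 75 it was 50% or more. The 50% level was also reached in the read-based tables by 39 of those 75 genes.

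The most abundant NMD transcript was Ppia-201 of the gene for cyclophilin A, a peptidyl-prolyl isomerase (chr11:6415870-6419815), at 604 and 571 TPM in replicates 1 and 2. It took 81.8% ± 0.178 (SD, n = 2) of the gene, against 1.05% and 1.22% for the coding transcript Ppia-202. The read-based tables gave a similar level, 632 and 694 TPM, with a share of 42.7%, and placed Ppia-202 at 433 and 399.9 TPM. In the annotation 3 near-identical copies of Ppia-201 lie elsewhere, and its deposited posterior SD was 75.6 on 7991 counts in replicate 1. Their part in the difference between quantifications was not tested.

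Next came Ndufa3-204 of an accessory subunit gene of respiratory complex I (chr7:3617391-3620163), at 206 and 197 TPM in replicates 1 and 2, with a share of 92.9% ± 0.252 (SD, n = 2). Its read-based level was 5.42 and 0 TPM, and it led its gene in the alignment-based tables only. It is 343 bases long, with its stop codon 56 bases before the last junction. Atp2a2-203 of the calcium pump gene of the endoplasmic reticulum (chr5:122453513-122502174) stood at 192 and 199.7 TPM in replicates 1 and 2 and at 211 and 225 TPM in the read-based tables. Its share was 66.1% ± 4.97 (SD, n = 2), and its stop codon is also that of a protein_coding transcript but lies 1258 bases before the last junction.

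Eif4a2-210, of a translation initiation helicase gene (chr16:23107778-23113947), stood at 169 and 151 TPM in replicates 1 and 2 but at 35.9 and 30.1 TPM in the read-based tables. Its share was 42.2% ± 0.142 (SD, n = 2) against 5.04% read-based, and the most abundant coding transcript Eif4a2-203 was also lower there, at 37.01 and 52.3 TPM against 119 and 96.8 TPM. Hnrnpu-206, from the gene of a nuclear RNA-binding protein that organises chromatin (chr1:178323074-178337728), stood at 80.95 and 75.7 TPM in replicates 1 and 2 and at 100.1 and 101 TPM read-based. It took 41.7% ± 1.93 (SD, n = 2) of the gene (36.97% read-based), more than the coding transcript Hnrnpu-201 at 19.1% and 19.1%.

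Cbarp-212, of a gene that regulates voltage-gated calcium channels, stood at 95.5 and 85.4 TPM in replicates 1 and 2 and at 178 and 165 TPM read-based. Prdx6-208, of an antioxidant peroxiredoxin gene, stood at 83.2 and 81.8 TPM in replicates 1 and 2 and at 127 and 133 TPM read-based. Ppp1cb-205, of a catalytic subunit gene of protein phosphatase 1, stood at 84.7 and 70.98 TPM in replicates 1 and 2 and at 85.1 and 68.6 TPM read-based. In all 3 both quantifications placed the NMD transcript first in its gene, with alignment-based shares of 43.8% ± 0.0180 (SD, n = 2), 58.3% ± 1.796 (SD, n = 2) and 47.1% ± 2.13 (SD, n = 2). Pfdn5-201, of a prefoldin chaperone subunit gene, stood at 81.4 and 80.3 TPM and at 136 and 158 TPM read-based, and led its gene only there.

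**Figure D2:**
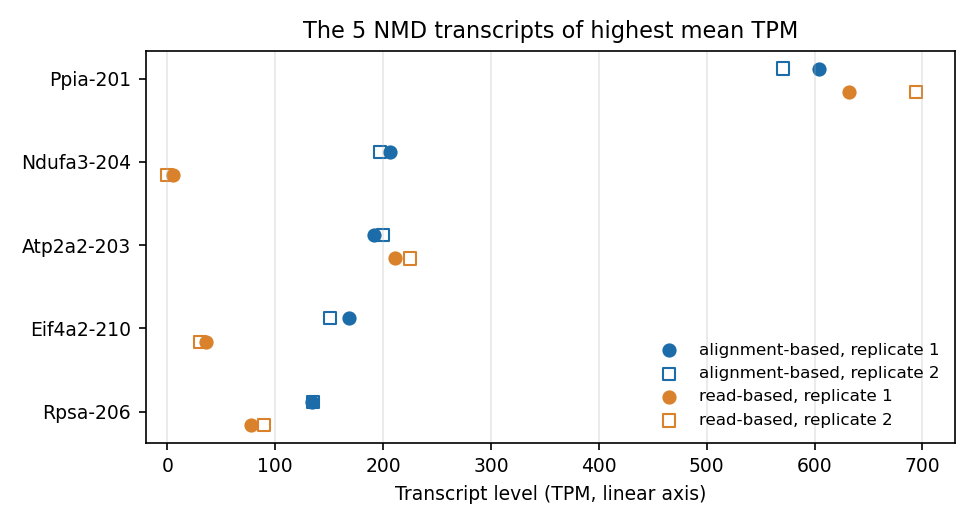
Level in TPM (x axis, linear) of the 5 NMD transcripts of highest mean alignment-based TPM (y axis), with circles for replicate 1 and squares for replicate 2, blue for alignment-based and orange for read-based values. The replicates lie close together within each quantification, while Ndufa3-204 and Eif4a2-210 lie far apart between quantifications.

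Among genes with a summed TPM of 10 or more and another expressed transcript, the highest shares after Ndufa3-204 were those of Rnf114-203, Mmaa-202, Mrps14-201 and Syt16-201. Rnf114-203, of a ubiquitin ligase gene, stood at 23.03 and 22.2 TPM with a share of 90.8% ± 0.163 (SD, n = 2), and at 22.3 and 19.7 TPM with 59.04% read-based. Mmaa-202, of a mitochondrial cobalamin-handling gene, stood at 9.92 and 10.9 TPM with 85.2% ± 1.27 (SD, n = 2), and at 16.4 and 17.6 TPM with 86.6% read-based. Mrps14-201, of a mitochondrial ribosomal protein gene, stood at 24.6 and 22.1 TPM with 85.1% ± 2.83 (SD, n = 2). The read-based tables listed Mrps14-201 at 9.89e-07 and 0 TPM, in effect nothing, and gave 45.2 and 45.2 TPM to the coding transcript Mrps14-202.

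Syt16-201, of a synaptotagmin-family gene, stood at 29.9 and 27.8 TPM with a share of 82.9% ± 0.598 (SD, n = 2), and at 43.3 and 42.5 TPM with 74.5% read-based. Kcna6-201, of a voltage-gated potassium channel gene, stood at 16.2 and 19.7 TPM with 73.4% ± 12.2 (SD, n = 2), the widest spread among the 10 transcripts of highest share. The stop codon of Kcna6-201 is also that of a protein_coding transcript but lies 3120 bases before the last junction. The coding Kcna6-204 stood at 4.93 and 0 TPM. Pik3cb-203, of a catalytic subunit gene of phosphoinositide 3-kinase, stood at 8.57 and 7.43 TPM with 78.01% ± 5.88 (SD, n = 2). Pgs1-201, of a gene for cardiolipin synthesis, stood at 29.5 and 27.5 TPM with 77.2% ± 0.0553 (SD, n = 2). Read-based shares were 67.2% for Kcna6-201, 68.8% for Pik3cb-203 and 51.7% for Pgs1-201.

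An NMD transcript was the leading transcript of its gene, with the highest TPM in both libraries, in 215 of 1517 cases (14.2%; 36.1% of all transcripts at the threshold, 48.8% of protein_coding and 3.13% of retained_intron transcripts). By read-based TPM 206 of the 1517 led, and 130 led in both quantifications. A share of 50% or more in both libraries was reached by 59 transcripts in both quantifications, and a share of 10% or more by 626. For 79 of the 1293 genes, no protein_coding transcript reached the threshold, and 25 of these genes have none in the annotation.

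A separate kind are the 26 transcripts, from 25 genes, whose gene has no protein_coding transcript in the annotation. Each overlaps at least 2 other protein-coding genes on the same strand, and 21 of the 26 were the only transcript with any level in their gene, so a share of 100% says nothing about splicing there. All 21 are among the 24 transcripts with a share of 90% or more in both libraries. They are also among the 98 at 50% or more and the 215 that led. The same holds for the 59 at 50% or more in both quantifications and the 130 that led in both. Examples, picked after their values were seen, are Gm20716-201 across Adnp and Dpm1 at 17.3 and 11.5 TPM, Gm20683-201 across Rhbdl1 and Rhot2 at 10.2 and 9.82 TPM, and Gm38393-201 across Snurf and Snrpn at 8.75 and 8.87 TPM. By read-based TPM 24 of the 26 reached 1 TPM in both libraries.

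The genes concerned included many of splicing factors. In the annotation 3644 of 12962 protein-coding genes with an expressed transcript have an NMD transcript, and 1292 of them had an expressed one (9.97% of all, 35.5% of those with an annotated NMD transcript). The list of SR and TRA2 factors, which bind exonic enhancers and promote exon inclusion, also holds the SR-related Srrm1 and Srrm2. For this list the numbers with an annotated and with an expressed NMD transcript were 14 and 9 of 17 genes. For hnRNP proteins, which coat pre-mRNA and often repress exons, they were 15 and 12 of 30. For the list of neuronal splicing regulators, which also holds general factors such as Rbm39 and Luc7l2, they were 14 and 12 of 30. For kinases of splicing factors they were 7 and 4 of 9, and for the core spliceosome 16 and 9 of 37. In each of these lists the share of genes with an annotated NMD transcript was above the 28.1% of all expressed protein-coding genes. Counted among genes with an annotated NMD transcript, the share with an expressed one was 64.3% for the SR and TRA2 list and 80% for hnRNP proteins. It was 85.7% for the mixed list of neuronal and general regulators, 57.1% for kinases and 56.3% for the spliceosome. It was above 35.5% in every other list with an expressed NMD transcript as well. The values were 61.5% for receptors and channels, 58.3% for synaptic scaffolds, 52.6% for ribosomal proteins and 50% for translation factors. Respiratory chain genes had 46.7%, and proteasome and cytoskeleton genes 40% each. All genes of the lists were expressed, and the lists were not tested against each other or against the background. An NMD transcript is counted by its TPM, so these percentages also depend on gene level, which was not matched.

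The 11 transcripts of the SR and TRA2 list, those of Srrm1 and Srrm2 included, had a median share of 12.5%, against 13.9% over all protein-coding genes. In 7 of the 11 the stop lies in an internal exon that is absent from coding transcripts. Srsf9-205 stood at 19.7 and 17.03 TPM in replicates 1 and 2 with 60.1% ± 2.27 (SD, n = 2) of its gene, above the coding Srsf9-201 at 10.8 and 11.2 TPM. The read-based tables kept that order, with 27.8 and 24.8 TPM for Srsf9-205 and 16.5 and 16.1 TPM for Srsf9-201.

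Srsf3-201 held 17.2% and 19.1% of its gene at 9.65 and 9.32 TPM, Tra2a-202 held 15.7% and 17.8% at 6.08 and 6.84 TPM and Tra2b-206 held 11.5% and 15.3% at 4.02 and 4.69 TPM. Their read-based shares were higher, at 31.9%, 40.2% and 22.2%. Srsf6-201 held 30.4% ± 3.602 (SD, n = 2) at 15.7 and 12.98 TPM, and Srsf1-204 12.5% ± 3.79 (SD, n = 2) at 8.41 and 12.3 TPM. Srrm2-203, from the gene of a large spliceosome-associated SR-related protein, was the most abundant of the list at 20.4 and 18.3 TPM, yet the read-based tables had 0 and 0.715 TPM.

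The hnRNP genes held 19 transcripts with a median share of 13.5%. After Hnrnpu-206, the largest shares belonged to Hnrnpa1-203, at 28.4 and 31.2 TPM and 27.9% ± 2.25 (SD, n = 2), and, picked out from the values, Hnrnpll-203 with 22.9% and 14.9% and Tardbp-228, of the gene for the RNA-binding protein TDP-43, with 20.3% and 17.4%. Hnrnpa1-203 has 3 near-identical copies elsewhere. A second transcript of the gene, Hnrnpa1-204, stood at 17.5 and 15.6 TPM with 15.5% ± 1.02 (SD, n = 2), so that both NMD transcripts together stayed below the coding Hnrnpa1-202 at 57.04 and 58.7 TPM. Hnrnpu-209 was at 28.6 and 22.8 TPM in the alignment-based tables and listed at 0 in both read-based ones.

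The list of neuronal splicing regulators had 16 transcripts with smaller shares, a median of 6.67%. Many of the 16 come from general factors such as Rbm39, Tial1, Luc7l and Rbm25, so the median is not one of neuronal regulators alone. Celf2-228, of a CELF family gene, stood at 27.8 and 25.5 TPM with 13.6% ± 0.407 (SD, n = 2) and a read-based share of 14.02%. Khdrbs3-204, of a STAR family gene, stood at 21.2 and 17.5 TPM with 14.3% ± 2.13 (SD, n = 2), and Qk-202, of the quaking gene needed for myelination, at 12.7 and 13.04 TPM with 8.78% ± 0.204 (SD, n = 2). Celf4-208 was at 20.4 and 12.8 TPM and listed at 0 in both read-based tables.

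Kinases that phosphorylate splicing factors showed the largest median share of the 12 lists that held an expressed NMD transcript, 36.4% over 5 transcripts, and 3 of the 5 led their genes (Clk1-210 and Prpf4b-208 in both quantifications, Srpk2-204 in the alignment-based one alone). Clk1-210 and Prpf4b-208 have no bases and no junction that the other transcripts of their genes lack. Srpk2-204 stood at 38.95 and 34.4 TPM in replicates 1 and 2 with 45.3% ± 0.386 (SD, n = 2) of the gene, against 23.1 and 22.6 TPM for the coding Srpk2-201. Clk1-210 stood at 22.5 and 20.9 TPM with 36.4% ± 0.108 (SD, n = 2), against 3.88 and 5.41 TPM for the coding Clk1-201 and 11.6 and 10.8 TPM for the retained-intron Clk1-204. Prpf4b-208 stood at 16.6 and 16.1 TPM with 40.1% ± 1.06 (SD, n = 2), and Srpk1-201 at 8.77 and 8.6 TPM with 18.5% ± 0.640 (SD, n = 2). The read-based shares of these 4, 30.8%, 33.7%, 30.9% and 17.1%, were all lower, while that of the fifth, Prpf4b-203, was higher at 8.37% against 3.74%.

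The core spliceosome had 9 transcripts with a median share of 10.6%. Sf1-201, of the branch point binding protein gene, stood at 11.2 and 13.01 TPM with 13.3% ± 1.84 (SD, n = 2), and Prpf3-203, of a U4/U6 snRNP protein gene, at 2.38 and 2.09 TPM with 13.2% ± 0.417 (SD, n = 2). Snrpa1-201, of a U2 snRNP protein gene, had 41.98% ± 3.34 (SD, n = 2) at 5.84 and 7.02 TPM and a read-based level of 0 and 0.376 TPM, below 1 TPM in both libraries.

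Ribosomal protein genes gave some of the highest levels and differed widely between quantifications. Of 81 genes, 19 have an annotated NMD transcript and 10 had an expressed one, with 13 transcripts in all. Their median share was 8.40% in the alignment-based and 0.297% in the read-based tables, and 6 of the 13 reached 1 TPM in both libraries there. Rpsa-206 (chr9:120127789-120131559) stood at 134 and 135 TPM in replicates 1 and 2 with 78.5% ± 0.794 (SD, n = 2) of its gene. The read-based tables had 77.5 and 89.4 TPM and placed the coding Rpsa-204 above it at 157 and 152 TPM.

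Rpl14-205 at 49.2 and 32.97 TPM and Rpl13a-202 at 37.9 and 16.6 TPM were listed at 0 in both read-based tables. Both come from genes of large-subunit proteins. The opposite was seen, picked out from the values, in Rpl27a-205, at 2.52 and 7.29 TPM against 354 and 386 TPM read-based, and Rpl12-201, at 28.6 and 31.2 TPM against 118 and 129 TPM. Rpl12-201 led its gene with 55.1% and 56.8% and a read-based share of 73.2%.

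Translation factor genes had 7 transcripts from 4 of 33 genes (8 with an annotated one). Beside Eif4a2-210, Eef1b2-205 of an elongation factor gene stood at 31.6 and 34.4 TPM with 22.9% ± 2.49 (SD, n = 2) and a read-based share of 20.96%. Eif4g1-222, of an initiation scaffold gene, stood at 8.88 and 7.76 TPM with 6.88% ± 0.518 (SD, n = 2) and a read-based share of 6.05%. Eef1b2-208 was at 9.15 and 12.1 TPM and listed at 0 in both read-based tables.

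In genes of the synapse, NMD transcripts were mostly small fractions. Synaptic scaffold and vesicle genes had 12 transcripts from 7 of 44 genes (12 with an annotated one), with a median share of 5.50% and a largest share of 12.4% in Dlg1-209, of a postsynaptic scaffold gene. Dnm1-206, of the dynamin gene of synaptic vesicle endocytosis, stood at 37.8 and 36.1 TPM, which was 6.61% ± 0.130 (SD, n = 2) of a gene whose coding Dnm1-201 stood at 274 and 254 TPM. Nrxn3-208, of a presynaptic adhesion gene, stood at 12.6 and 9.86 TPM with 10.01% ± 1.10 (SD, n = 2). Read-based shares were 3.63% for Dnm1-206 and 8.20% for Nrxn3-208.

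Receptor and channel genes had 10 transcripts from 8 of 47 genes (13 with an annotated one), with a median share of 6.37%. The highest of these was Gabra2-204, of a GABA-A receptor subunit gene, at 15.3 and 16.2 TPM in replicates 1 and 2 with 38.5% ± 0.933 (SD, n = 2) of the gene. The coding Gabra2-203 stood at 17.5 and 17.9 TPM. In the read-based tables Gabra2-204 was at 26.7 and 29.01 TPM, above Gabra2-203 at 22.4 and 23.5 TPM.

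Gria3-206, of an AMPA receptor subunit gene, stood at 10.4 and 12.3 TPM with 12.7% ± 1.99 (SD, n = 2) and at 1.11 and 1.16 TPM read-based. Kcnt1-205, of a sodium-activated potassium channel gene, stood at 8.31 and 7.45 TPM with 12.4% ± 0.255 (SD, n = 2), and Grik5-202, of a kainate receptor subunit gene, at 4.13 and 4.05 TPM with 4.32% ± 0.0281 (SD, n = 2). Neuronal cytoskeleton and motor genes had 2 transcripts among 29 genes (5 with an annotated one). Ank3-225, of the ankyrin gene of the axon initial segment, stood at 11.6 and 12.6 TPM with 5.08% ± 0.306 (SD, n = 2), and Kif1a-205, of an axonal kinesin gene, at 3.26 and 2.49 TPM with 0.852% ± 0.138 (SD, n = 2) and listed at 0 in both read-based tables.

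Proteasome genes had 5 transcripts from 4 of 31 genes (10 with an annotated one), led by Psmd13-211 at 14.9 and 13.4 TPM with 30.7% ± 0.496 (SD, n = 2) (39.8% read-based). Psma3-201, of a core particle subunit gene, stood at 6.81 and 11.1 TPM but at 68.0 and 65.6 TPM read-based. Respiratory chain and ATP synthase genes had 8 transcripts from 7 of 54 genes (15 with an annotated one). Beside Ndufa3-204, both NMD transcripts of Ndufs4, another complex I subunit gene, were high: Ndufs4-202 at 27.2 and 20.6 TPM and Ndufs4-204 at 23.1 and 23.9 TPM. They held 37.1% ± 4.13 (SD, n = 2) and 36.8% ± 4.02 (SD, n = 2) of the gene, while its coding transcripts Ndufs4-206 and Ndufs4-201 stood at 7.38 and 6.83 TPM and 5.54 and 6.93 TPM. The read-based tables placed Ndufs4-204 highest, at 70.1 and 58.2 TPM.

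The genes of the NMD machinery itself had no expressed NMD transcript. All 27 genes of that list were expressed, 5 of them (Smg1, Smg5, Smg6, Magohb and Dcp1a) have an annotated NMD transcript, and none of those reached 1 TPM in both libraries. Upf1, the helicase at the centre of the pathway, stood at 31.6 and 29.9 TPM per gene in replicates 1 and 2. Smg1, the kinase that phosphorylates it, stood at 33.2 and 35.2 TPM, and Smg6, the endonuclease, at 14.3 and 13.9 TPM. Among exon junction genes Eif4a3 stood at 36.3 and 29.4 TPM and Magoh at 19.4 and 14.5 TPM. The 5 genes that could contribute are too few to set a count of 0 against the background of 35.5%.

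**Figure D3:**
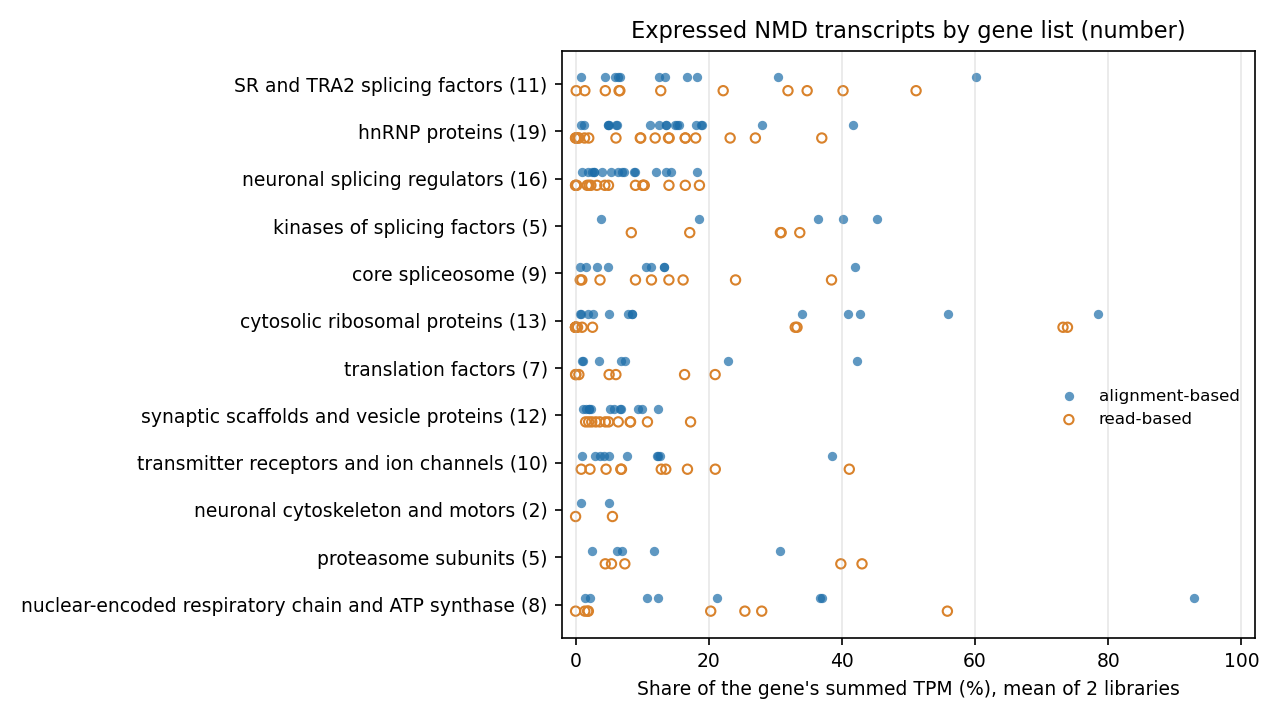
Share of the gene's summed TPM in percent (x axis, mean of 2 libraries) for each expressed NMD transcript of the gene lists (y axis, number of transcripts in brackets), filled for alignment-based and open for read-based tables. Kinases of splicing factors have 4 of their 5 alignment-based shares above 18%, and 8 of the 13 read-based ribosomal protein shares lie below 1%.

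The annotated stop codon lay more than 50 bases before the last exon junction in 1505 of the 1515 transcripts that have a stop annotated (99.3%). Since the type is assigned from such a distance, this checks the label and is no finding. For all 7186 annotated NMD transcripts the value was 99.5%, and for protein_coding transcripts at the threshold it was 88 of 19308 (0.456%). The median distance was 385 bases, with 163 transcripts between 50 and 100, 720 between 100 and 500 and the rest farther. A distance of 50 bases or less was found for 10. The coding sequence was short, a median of 313 bases against 1221 in protein_coding transcripts. For 385 of the 1517 (25.4%) the annotation marks the start of the transcript or of its coding part as not found.

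**Figure D4:**
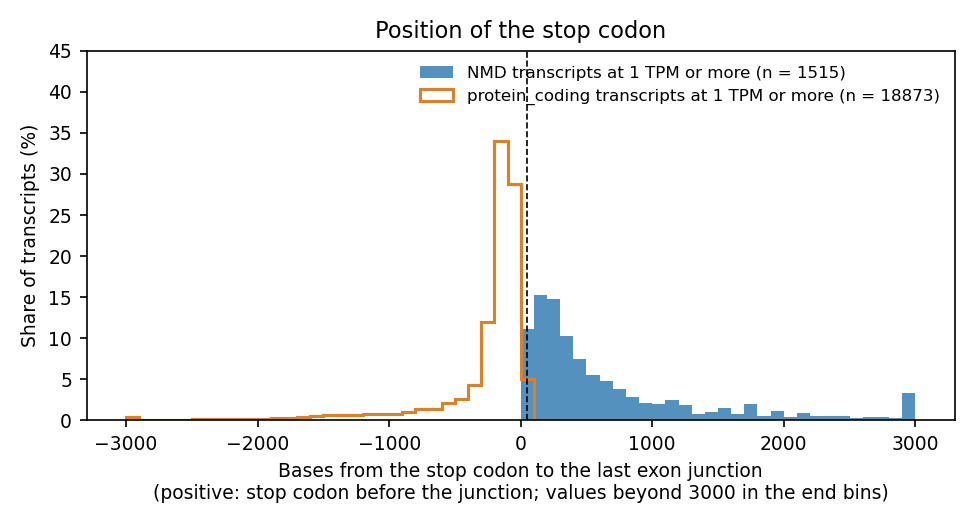
Share of transcripts in percent (y axis) by the spliced distance in bases from the stop codon to the last exon junction (x axis, bins of 100, positive where the stop lies before the junction), filled for the 1515 NMD transcripts with a stop and outlined for 18873 expressed protein_coding transcripts that have a stop and a junction; the dashed line marks 50 bases. Nearly all NMD transcripts lie to the right of the line and nearly all protein_coding transcripts to its left.

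The stop codon was reached in different ways. In 846 transcripts (55.8%) it lay inside an exon of a coding transcript of the gene, and in 824 of these within its coding part. In 520 (34.3%) it lay outside the exons of coding transcripts: 281 in an internal exon absent from them, 156 in an extended exon, 39 in a retained intron and 44 in a terminal exon. In 123 (8.11%) the stop was that of a coding transcript, and in 26 there was no coding transcript to compare. Of the transcripts described above, the 123 include Atp2a2-203, Kcna6-201, Ppp1cb-205, Prpf4b-208, Srsf6-201, Hnrnpa1-203, Hnrnpa1-204, Khdrbs3-204, Qk-202 and Celf4-208. The median share of the gene was 14.8% for stops inside a coding exon, 11.1% for those outside and 17.1% for those shared with a coding transcript.

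The 281 internal exons had a median length of 118 bases, and 34.9% had a length divisible by 3, against 36.0% for the internal exons of this kind in all annotated NMD transcripts. The stop codon was TGA in 861 transcripts (56.8%), TAA in 335 (22.1%) and TAG in 319 (21.1%). In protein_coding transcripts at the threshold the values were 50.2%, 26.6% and 23.3%. Transcripts of 1 gene often share a stop codon and are not independent.

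The read-based tables come from the same reads, so they give a second estimate and not a replicate. In them 1244 of the 1517 transcripts (82.0%) also reached 1 TPM in both libraries, against 84.6% of all transcripts chosen by the same threshold. A further 117 did so in 1 library and 156 in neither, and 89 (5.87%; 7.06% of all) were listed at 0 in both. The levels lay within 2-fold in both libraries for 664 (43.8%), against 58.4% of all transcripts at the threshold, 64.1% of protein_coding, 57.7% of retained_intron and 34.4% of processed_transcript ones. Read-based values were more than 2-fold higher for 378 and more than 2-fold lower for 200, those at 0 included. The scales of the quantifications differ as well: the median ratio of read-based to alignment-based TPM was 1.49 and 1.58 for NMD and 1.43 and 1.51 for protein_coding transcripts.

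Across the 1517 transcripts, Pearson's r of log2(TPM + 1) between the quantifications was 0.569 in replicate 1 and 0.573 in replicate 2 (Spearman's rho 0.550 and 0.546), against 0.726 in both for protein_coding transcripts. Between the replicates within a quantification r was 0.941 (alignment-based) and 0.924 (read-based). The 2 quantifications share the reads of a library, and transcripts of 1 gene share reads with each other. Shares, which do not depend on the scale, gave r of 0.781 and 0.784, against 0.840 and 0.841 for protein_coding transcripts. The 1517 include the 21 described above that were the only transcript with any level in their gene. Their alignment-based share is 100% by construction, and they were not left out. The read-based share was lower in both libraries for 738 transcripts, higher in both for 556 and within 10 points in both for 980, with a median of 12.1%. Conversely, 2455 NMD transcripts reached 1 TPM in both read-based tables, and 1211 of them are not among the 1517.

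**Figure D5:**
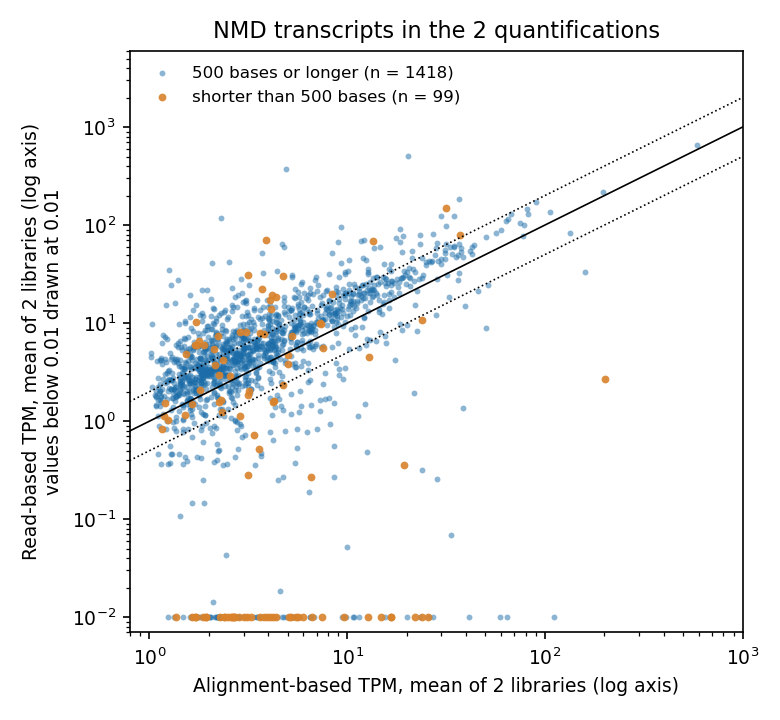
Read-based TPM (y axis) against alignment-based TPM (x axis), means of 2 libraries on log axes, for the 1517 NMD transcripts, with orange for the 99 shorter than 500 bases, a solid line at equality, dotted lines at 2-fold and values below 0.01 drawn at 0.01. Most points lie near or above the line of equality, and the row at the bottom holds many of the short transcripts, 41 of which are listed at 0 in both read-based tables.

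Agreement moved with transcript length. Of the 99 transcripts below 500 bases, 34.3% reached 1 TPM in both read-based tables, 41.4% were listed at 0 and 9.09% lay within 2-fold. In the next class, under 1 kb (448 transcripts), 78.8% reached 1 TPM and 27.9% lay within 2-fold. The shares rose with each length class up to the longest transcripts (4 kb or more, 208 transcripts), with 92.8% and 63.5%.

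By what a transcript has of its own, the 2 measures of agreement differed. Transcripts with bases that no other transcript of the gene contains reached 1 TPM in both read-based tables in 88.8% (641 with an own junction as well) and 92.6% (108 without). For the 578 with only an own junction it was 74.7%, and for the 190 with neither 75.3%. The 190 include Cbarp-212, Ndufa3-204, Eif4a2-210, Pgs1-201, Pfdn5-201, Clk1-210 and Prpf4b-208, so their levels rest on how reads were divided among transcripts. Within 2-fold in both libraries lay 44.0% of the 641, 61.1% of the 108, 42.2% of the 578 and 37.9% of the 190 against 43.8% of all 1517. Transcripts of annotation support level 1, the best, lay within 2-fold in 56.3% of 549 cases, those of level 2 in 48.3% of 145, those of level 3 in 23.4% of 205, those of level 5 in 35.5% of 454 and those with no level in 46.3% of 164, so the order of levels was not followed throughout. The 215 leading transcripts lay within 2-fold in 65.1% and the others in 40.2%.

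The largest disagreements among transcripts with a mean count of 50 or more went both ways. Ndrg4-210, of a gene of the NDRG family that is active in neurons, had 16.2 and 24.2 TPM alignment-based but 511 and 512 TPM read-based, while the coding Ndrg4-202 had 318 and 292 TPM and 2.02 and 1.86 TPM. Ppt1-203, of the lysosomal thioesterase gene, had 2.46 and 2.58 TPM against 46.1 and 38.9 TPM, and Glrb-204, of the glycine receptor beta subunit gene, 5.02 and 2.36 TPM against 50.9 and 53.6 TPM. Read-based values were also higher for Eif4a1-201, of another initiation helicase gene (3.35 and 6.04 TPM against 60.5 and 68.9 TPM) and for Rbm39-223, of a splicing coactivator gene (1.43 and 1.0 TPM against 18.1 and 12.8 TPM).

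In the other direction, besides Rpl14-205 and Rpl13a-202, Rab11b-204, of a recycling endosome GTPase gene, had 63.5 and 65.2 TPM, and Hsp90ab1-206, of a cytosolic chaperone gene, 54.9 and 63.1 TPM. All 4 were listed at 0 in both read-based tables. Of the 89 transcripts listed at 0 there, 15 had 10 TPM or more in both alignment-based tables, and their median length was 561 bases.

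Between the replicates the levels of the 1508 transcripts with a mean count of 10 or more were close: the median log2 ratio of replicate 2 over replicate 1 was -0.01, and 77.7% lay within 1.5-fold, against 85.9% of all transcripts at the threshold. A difference was called where the exact 95% interval of the ratio lay wholly beyond 2-fold, which covers counting error only and has no replicate check. By that rule 11 were higher in replicate 2 (0.451% of all transcripts at the threshold were called so) and 12 lower (0.47%). The largest were Ube3b-202, of a ubiquitin ligase gene, with counts of 109 and 518 and a log2 ratio of 2.23 (95% interval 1.94 to 2.55), and Rbm39-222, of the same splicing coactivator gene, with counts of 78.1 and 15.1 and -2.35 (95% interval -3.30 to -1.58). Stx4a-209, of a syntaxin gene, had 25.5 and 104 and 1.97 (95% interval 1.36 to 2.67), and Hs2st1-202, of a heparan sulfate sulfotransferase gene, 88.95 and 19.5 and -2.21 (95% interval -3.04 to -1.51).

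These intervals leave out the error of assignment, which was close to the count itself for Ube3b-202 in replicate 1: the deposited posterior SD was 107 on 109 counts, and 182 on 518 in replicate 2. Its deposited TPM intervals, 0.0941 to 3.80 and 1.54 to 8.05, overlapped, and its read-based levels were 0 and 1.45 TPM. The read-based tables did not repeat the size of these differences for every transcript. Rbm39-222 had 35.7 and 28.7 TPM there in replicates 1 and 2, against 6.37 and 1.15 TPM alignment-based, and Stx4a-209 had 27.5 and 40.6 TPM against 1.84 and 7.0 TPM. Hs2st1-202 had 35.8 and 22.7 TPM against 8.72 and 1.78 TPM. Minar2-202 kept the size, with 2.13 and 7.64 TPM against 1.04 and 3.47 TPM. The others named by rank were Ccnl2-202 and Traf7-216 in the higher direction and Vta1-202, Mtpap-202 and Eif4a2-204 in the lower.

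At the threshold itself, Chfr-209 (1.03 and 1.0 TPM), Adamts10-207 (1.28 and 1.0 TPM) and 2410004B18Rik-202 (1.34 and 1.0 TPM) were just inside. Cnot3-204 (1.0 and 0.990 TPM), Bace2-202 (1.87 and 0.990 TPM) and Dusp12-205 (2.05 and 0.990 TPM) were just outside. No test was made at this limit.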

How the data were processed

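Total RNA from 2 libraries of 1 group was measured, so no groups were compared and no test was made. The authors deposited, for each library, expected counts and TPM per transcript from alignments to the transcriptome (alignment-based), and a second set of estimated counts and TPM made from the reads without those alignments (read-based). Assembly mm10 and GENCODE M21 are named per the file lists deposited with each library; no aligner or quantifier is given in the sources used here, nor is the level of the deposited TPM interval. The deposited TPM have the same sum in every table, and spike-ins count towards it. Transcript types come from the annotation, which all 141862 transcripts matched.

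Shares, leading transcripts, distances from stop codon to junction and classes of stop codon were computed in Python 3.11.15 with pandas 2.3.3. Near-identical copies in other genes (98% identity over at least 80% of the shorter and 50% of the examined transcript) were sought with blastn 2.17.0. For the ratio of replicates, expected counts were rounded to whole numbers, scaled with edgeR 4.0.16 (TMM), given a prior count of 0.5 and an exact 95% binomial interval (Clopper-Pearson, scipy 1.17.1), with a mean count of at least 10; this rule was tested on simulated data. Intervals and the floor of 3 counts cover counting error only, not the assignment of reads among transcripts. Scaling with DESeq2 1.42.0 size factors, other TPM limits, other denominators, expected counts in place of TPM, the read-based tables and leaving out a replicate were tried as alternatives.

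Transcripts were named by rule: the 12 of highest mean TPM, the 10 of highest share in genes of at least 10 TPM that hold another expressed transcript, up to 4 of highest TPM in each of 13 gene lists, the 5 largest disagreements between quantifications in each direction (mean count of at least 50), up to 5 differences between replicates in each direction, and the 3 on either side of the threshold. Others are said to be picked from their values. The transcripts and the gene lists were chosen with earlier results of these data known. Some transcripts and genes that these rules would name are not reported here.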

Additional observations from a re-analysis of the deposited data

How the results depend on the processing

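The number of expressed NMD transcripts was 963 at 2 TPM, 444 at 5 TPM, 2455 with read-based TPM and, chosen after seeing the data, 833 where the deposited lower bound of the TPM had to reach 1. It was 2100 at 0.5 TPM and 1825 to 1925 with either replicate left out. The median share of 13.9% became 18.0% over protein_coding and NMD transcripts alone, 9.20% with expected counts, 12.1% with read-based TPM, 17.2% for transcripts at 2 TPM and, chosen after seeing the data, 14.6% for transcripts that also reached 1 TPM read-based. With either replicate left out it was 13.6% to 13.8%. Of 215 leading transcripts, 130 led in both quantifications, an alternative chosen after seeing the data, while the count was 206 read-based, 190 by expected counts and 257 to 264 with either replicate left out. The 1244 found at 1 TPM read-based were 1302 at 0.5 TPM and 1109 at 2 TPM. The 664 within 2-fold became 838 when, chosen after seeing the data, the median ratio of all expressed transcripts was set to 1. Differences between replicates numbered 21 with scaling by total counts and 23 with the other scalings. Of the 80 named shares, 70 moved beyond the SD between replicates with read-based TPM, 57 with expected counts and 45 over protein_coding and NMD transcripts. The cause of these shifts was not tested, apart from the smaller numbers that stricter limits give by construction. At low levels both depth and the division of reads among overlapping transcripts limit precision: 9 transcripts had a mean count below 10, and 685 a deposited posterior SD above 25% of the count in at least 1 library. No paired analysis was possible because the libraries form 1 group.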
